A study of Mus musculus with 6 samples.

Results

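Serine proteases and the proteins that inhibit them were examined in colon mucosa of mice with and without a partial deletion of the DNA methyltransferase gene Dnmt3a, whose enzyme sets new methyl marks. The set held every array probe whose platform gene symbol names a kallikrein (Klk), a Prss or Tmprss protease, the matriptase gene St14, or an inhibitor of the Serpin, Spint or Spink families, with the goblet cell gene Spink4 left out. It came to 213 of the 45135 probes and to 145 of the 19031 genes named on the array: 75 protease genes with 115 probes and 70 genes of inhibitor families with 98 probes. Some members bear a family name without being an active enzyme or inhibitor, such as the collagen chaperone Serpinh1 and the pseudogene Serpina4-ps1. All 6 mice were 5 months old, of strain background C57/B6, and shared APC(Min/+), a mutation that predisposes to intestinal tumours, and Dnmt3a(2lox/2lox). The 3 control mice carried no Cre, Fabpl(4x at -132)-Cre(-/-), and the 3 Dnmt3a-deleted mice (also called the deleted mice) carried it, Fabpl(4x at -132)-Cre(-/+). A Fabp promoter drives this Cre, which per the design text deletes Dnmt3a in 30 to 50% of mucosa cells, so the other cells of each sample still hold the gene. Each sample has its own animal number in the labels and was measured on 1 single-colour Illumina bead array. In such bulk samples fewer cells of a type and less RNA per cell cannot be told apart.

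Serine proteases cut proteins with an active-site serine. At the surface of gut epithelium the membrane-anchored matriptase (St14) and prostasin (Prss8) form a cascade that maintains the barrier and activates the epithelial sodium channel, and the Kunitz-domain inhibitors Spint1 and Spint2 hold it in check. Kallikreins are secreted proteases of glands, and Klk1 releases kinin peptides from kininogen. Serpins trap their target protease in a suicide reaction, and several of clade b act inside cells against proteases of granules and lysosomes.

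Deletion of a DNA methyltransferase bears on cytosines that precede guanines, so the promoters of a few members are shown with each such CG pair in capitals. Windows from RefSeq (assembly GRCm38.p6), each reaching from 250 bases before to 50 bases after the start of a gene, were matched by symbol for 115 of the 145 genes. Methylation of these promoters was not analysed here. The 3 kallikreins, Prss32 and Spint1 are shown because their values below move together or apart and because their CG content lies at opposite ends. They lie on the forward strand at chr7:44225110-44225409 (Klk1), chr7:44012428-44012727 (Klk1b26), chr7:44052040-44052339 (Klk1b27), chr17:23853522-23853821 (Prss32) and chr2:119237110-119237409 (Spint1).
Klk1: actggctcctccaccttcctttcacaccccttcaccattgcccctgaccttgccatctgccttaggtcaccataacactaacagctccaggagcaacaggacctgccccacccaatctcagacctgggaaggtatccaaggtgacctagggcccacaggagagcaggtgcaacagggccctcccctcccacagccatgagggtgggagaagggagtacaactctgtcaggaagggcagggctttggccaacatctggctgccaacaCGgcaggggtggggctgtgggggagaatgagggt
Klk1b26: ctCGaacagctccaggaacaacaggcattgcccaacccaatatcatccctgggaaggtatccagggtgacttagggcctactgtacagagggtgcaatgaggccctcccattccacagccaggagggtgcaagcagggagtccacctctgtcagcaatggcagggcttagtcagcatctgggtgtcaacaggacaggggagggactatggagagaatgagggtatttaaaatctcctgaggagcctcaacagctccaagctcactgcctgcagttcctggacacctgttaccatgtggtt
Klk1b27: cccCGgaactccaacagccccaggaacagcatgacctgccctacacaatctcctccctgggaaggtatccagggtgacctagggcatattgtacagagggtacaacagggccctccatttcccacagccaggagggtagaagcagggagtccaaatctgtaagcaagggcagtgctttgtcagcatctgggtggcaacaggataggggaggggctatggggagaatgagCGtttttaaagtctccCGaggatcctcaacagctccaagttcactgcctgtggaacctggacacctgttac
Prss32: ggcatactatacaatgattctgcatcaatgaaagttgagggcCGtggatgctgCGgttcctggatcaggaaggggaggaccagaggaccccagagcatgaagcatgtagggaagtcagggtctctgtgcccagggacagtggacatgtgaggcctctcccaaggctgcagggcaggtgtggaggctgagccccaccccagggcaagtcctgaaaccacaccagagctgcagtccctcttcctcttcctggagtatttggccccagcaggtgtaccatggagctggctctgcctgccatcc
Spint1: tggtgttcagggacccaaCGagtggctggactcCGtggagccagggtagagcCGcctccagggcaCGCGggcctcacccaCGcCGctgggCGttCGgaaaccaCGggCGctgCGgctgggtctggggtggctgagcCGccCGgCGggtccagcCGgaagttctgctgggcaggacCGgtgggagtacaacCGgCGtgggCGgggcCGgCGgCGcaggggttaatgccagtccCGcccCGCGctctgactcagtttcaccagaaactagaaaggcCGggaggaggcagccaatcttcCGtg

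The windows of Klk1 and Klk1b26 held 1 CG pair each, that of Prss32 held 2 and that of Klk1b27 held 3. The Spint1 window held 28, as many as or more than 87.1% of the 32841 windows of all genes. Over the 137 windows of members the median was 3, against 7 over all windows, and 20.4% of member windows held 10 or more CG pairs, against 43.5% of all windows. Aligned end to end, with gaps counted as columns, the Klk1b26 and Klk1b27 windows were 80.6% identical. The Klk1 window was 48.0% identical to that of Klk1b26 and 50.9% to that of Klk1b27. By the same measure it was 46.5% identical to that of Prss32 and 45.6% to that of Spint1. Gap columns lower these shares. Among bases aligned without a gap, Klk1 matched Klk1b26 at 181 of 223 and Klk1b27 at 188 of 231. It matched Prss32 at 161 of 254 and Spint1 at 156 of 258.

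Of the 145 genes, 50 could be tested: 31 protease genes and 19 inhibitor genes, each with a probe detected above background on at least 3 of the 6 arrays. Another 24 genes were detected on 1 or 2 arrays, and 71 on none. The genes never detected included the trypsin Prss2, the granzyme B inhibitor Serpinb9, the maspin gene Serpinb5 and Serpinh1, and the trypsin Prss3 was detected on 1 array. Values are log2 intensities after background correction and quantile normalization. Intensities of different probes do not compare the amounts of different RNAs, so each gene is set against itself across mice. By signal the tested members fell into 14 genes with a mean above 8 and 36 genes between 5.07 and 6.94, of which 32 lay below 6 and so near the lowest detected values, 5.09 to 5.14 on the 6 arrays.

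The 3 probes of Dnmt3a stayed at background on all 6 arrays, so the arrays give no check of the labels. All 11 colonocyte markers examined and 7 of 7 goblet cell markers were detected on at least 3 arrays. Dnmt3a-deleted replicate 3 stood apart: its correlations with the other arrays ran from 0.925 to 0.950 and those among the other 5 were at least 0.978. Its mean signal was 285, against 353 to 379 on the others. It was also the only female of its group by Xist and Eif2s3y, while the control group held 1 male and 2 females, so the differences of the members named below are given with and without this mouse.

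No protease or inhibitor gene differed between the groups at an adjusted p under 0.05 by limma, where 0.00880% of the 11370 genes tested did, a single gene outside this set. The median log2 difference, Dnmt3a-deleted minus control, was 0.03 over the 31 protease genes and -0.00309 over the 19 inhibitor genes, beside 0.06 over all genes tested, and without Dnmt3a-deleted replicate 3 it was 0.05 and -0.00215 for these classes. Of the protease genes 18 had a positive and 13 a negative difference, and of the inhibitor genes 9 and 10. Over all genes tested 6635 differences were positive and 4735 negative. The smallest adjusted p of any member was 0.700. At an unadjusted p under 0.05 there were 3 protease and 0 inhibitor genes, 3 of 50 against 5.25% of all genes tested. Without Dnmt3a-deleted replicate 3 they were 1 protease (Klk8) and 1 inhibitor gene (Serpinb9d), where 4.86% of all genes had such a p. The groups did not overlap for 6 members, 12.0%, against 14.5% of all genes: Tmprss7 and Klk9 were higher in every Dnmt3a-deleted mouse, as were 9.22% of all genes, and Klk8, Prss32, Serpinb9d and Serpina16 lower, as were 5.30%. Taken probe by probe, 0 of the 63 kept member probes passed at an adjusted p under 0.05, where 0.00472% of kept probes did, and 3 had an unadjusted p under 0.05, against 4.92%. By class, 3 of 31 protease and 0 of 19 inhibitor genes had an unadjusted p under 0.05 by limma. The groups did not overlap for 12.9% of the protease and 10.5% of the inhibitor genes. Over the 50 members together these shares lay near those of all genes, and each class alone is small. The 95% confidence interval of the difference lay within a 2-fold change either way for 41 of the 50 genes, 24 proteases and 17 inhibitors. For the other 9 (Klk1b27, Prss32, Prss41, Tmprss2, Tmprss4, Tmprss7, Tmprss13, Spink1 and Serpinb1a) the interval reached beyond 2-fold. Of these, Klk1b27, Prss32, Tmprss2, Tmprss4, Spink1 and Serpinb1a belong to the 14 genes with a mean above 8. Most of the 41 lay near background, where differences are compressed, so their narrow intervals do not bound the change in RNA. The plot of differences shows all 50.

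**Figure D1:**
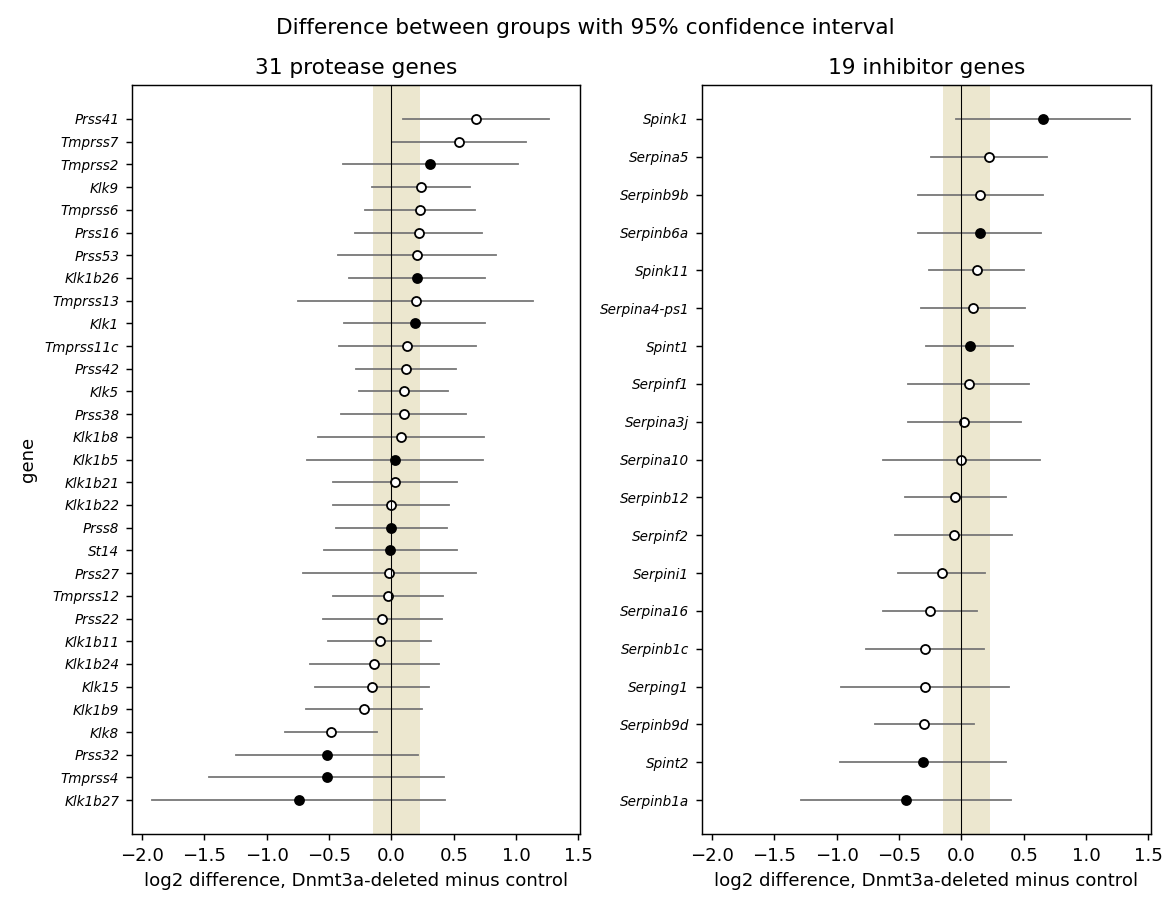
Log2 difference between Dnmt3a-deleted and control mice for each tested gene (3 mice a group), protease genes on the left and inhibitor genes on the right, with limma's 95% confidence interval as a bar. Filled points mark genes with a mean log2 intensity above 8, and the shaded band is the interquartile range over all 11370 genes. Most points lie in or near the band, and the widest differences run from -0.74 (Klk1b27) to 0.68 (Prss41).

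The matriptase system of the epithelial surface was measured with strong signal. By the brightest probe of each gene it did not differ between the groups beyond the spread of the mice. St14 read 10.24, 10.09 and 9.94 in control replicates 1 to 3 and 10.24, 10.40 and 9.61 in Dnmt3a-deleted replicates 1 to 3. Prss8, which matriptase activates, read 9.28, 9.56 and 9.02 against 9.40, 9.37 and 9.09. The groups overlapped for both genes. Their differences were -0.00784 ± 0.23 and -0.000803 ± 0.19 (SE; adjusted p 0.991 and 0.999 by limma), with 95% intervals of -0.54 to 0.53 and -0.45 to 0.45. Without Dnmt3a-deleted replicate 3 they were 0.23 and 0.10. A second kept probe of each gene, described below, gave larger differences of 0.44 for St14 and 0.32 for Prss8, neither of which passed.

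Spint1, whose product HAI-1 binds matriptase, was the steadiest of the 14 genes with strong signal, spanning 0.24 over the 6 mice. Its values were 12.68, 12.70 and 12.63 in the controls and 12.68, 12.66 and 12.87 in the deleted mice, a difference of 0.07 ± 0.15 (SE) with an interval of -0.28 to 0.41. Spint2, the related inhibitor HAI-2, read 8.82, 9.14 and 8.65 against 8.70, 9.04 and 7.95. Its lowest value was that of Dnmt3a-deleted replicate 3, and its difference of -0.31 ± 0.29 became -0.00335 without that mouse; that of Spint1 became -0.00156. The sign of the Spint1 and St14 differences changed with the processing, as the closing section lists.

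Tmprss4 and Tmprss2, other membrane-anchored proteases, lay outside the other mice in opposite directions in Dnmt3a-deleted replicate 3. Tmprss4, which can activate the epithelial sodium channel, read 10.87, 10.71 and 10.98 in the controls and 10.75, 10.97 and 9.29 in the deleted mice. The values of all mice but Dnmt3a-deleted replicate 3 lay close together, and the difference of -0.52 ± 0.41 (adjusted p 0.711) was 0.00350 without replicate 3. Tmprss2, known for priming viral surface proteins, went the other way in the same mouse, at 12.13, 12.71 and 12.82 against 12.86, 12.34 and 13.40. Its difference of 0.31 ± 0.30 (adjusted p 0.739) was 0.05 without replicate 3.

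Tmprss7, matriptase-3, had the only non-overlapping groups among the Tmprss genes and St14. It read 6.20, 6.13 and 6.43 in the controls and 6.55, 6.57 and 7.28 in the deleted mice. The difference was 0.55 ± 0.23 (SE), with an unadjusted p of 0.0475 and an adjusted p of 0.700, and 0.31 without replicate 3. Tmprss6, matriptase-2, which restrains the iron hormone hepcidin in liver, overlapped between groups (0.23 ± 0.19, and 0.10 without replicate 3).

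Among the Prss genes, Prss32 was lower in each of the 3 Dnmt3a-deleted mice than in any control mouse, by a small margin in 2 of them. Its values were 13.04, 13.20 and 13.01 in the controls and 12.94, 12.98 and 11.79 in the deleted mice. The difference of -0.51 ± 0.32 (SE) did not pass (adjusted p 0.700), and without replicate 3 it was -0.13. A second Prss32 probe read 11.99, 12.31 and 12.00 against 11.97, 12.01 and 9.66, and so dropped further in the same mouse. By that probe the groups overlapped, since Dnmt3a-deleted replicate 2 lay slightly above control replicates 1 and 3. Prss41, a protease known from testis, was dim and detected on 1 control and 3 Dnmt3a-deleted arrays. It read 4.67, 5.45 and 4.99 against 5.88, 5.34 and 5.91, a difference of 0.68 ± 0.25 (unadjusted p 0.0287, adjusted p 0.700) with overlapping groups, and 0.58 without replicate 3.

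**Figure D2:**
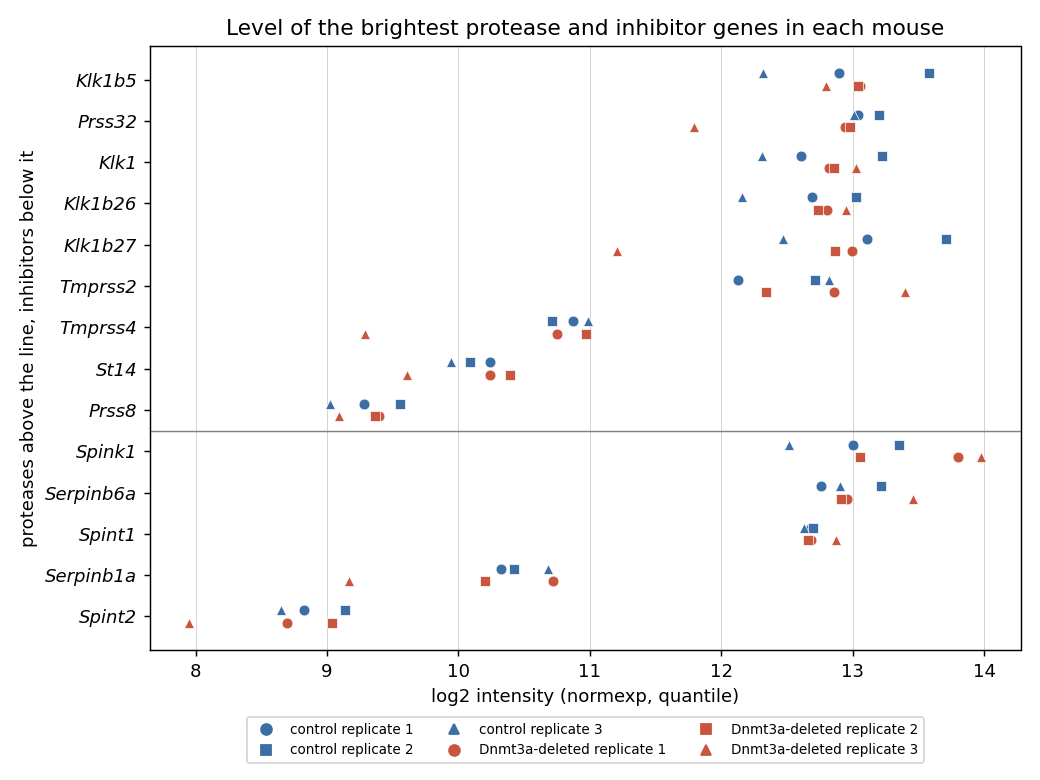
Log2 intensity of the 14 members with a mean above 8 in each of the 6 mice, proteases above the line and inhibitors below it, blue for control and red for Dnmt3a-deleted mice, with a marker shape for each replicate number. Dnmt3a-deleted replicate 3 (red triangles) lies outside the other 5 mice for 10 of the 14 genes, lowest for 6 and highest for 4, for example at 9.29 for Tmprss4 and 13.40 for Tmprss2.

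By the probe that represents each gene, Dnmt3a-deleted replicate 3 had the lowest value of the 6 mice for Prss32, Klk1b27, Tmprss4, St14, Serpinb1a and Spint2, and the highest for Spink1, Serpinb6a, Spint1 and Tmprss2. Of all 4413 genes with a mean above 8, 32.7% were lowest and 42.6% highest on this array, so the members were not alone in this. The means of marker lists moved there too. That of the 11 colonocyte markers was 10.98 in this mouse and 11.29 to 11.70 in the others. That of the 7 goblet cell markers was 11.95 against 10.83 to 11.43. Single colonocyte markers went opposite ways in this mouse: Car1 read 11.64 against 13.63 to 14.29, and Slc26a3 read 10.95 against 8.61 to 9.84. The part of these cell types in the values of the members was not tested. For 11 of the 14 genes the difference between groups was smaller than the range of the 3 control mice. Leaving replicate 3 out shrank the difference in 11 of 14, changed its sign in 5, and left a largest difference of 0.47, that of Spink1.

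The glandular kallikreins of chromosome 7 formed a block of 4 genes with strong signal. Klk1, tissue kallikrein, read 12.60, 13.23 and 12.31 in the controls and 12.82, 12.86 and 13.03 in the deleted mice. Klk1b26 read 12.69, 13.03 and 12.16 against 12.81, 12.74 and 12.95. Klk1b5 read 12.89, 13.58 and 12.31 against 13.06, 13.04 and 12.79. Control replicate 2 was the highest of the 6 mice and control replicate 3 the lowest for all 3 genes, and the Dnmt3a-deleted values lay between them. The differences were 0.19 ± 0.24, 0.21 ± 0.23 and 0.03 ± 0.30 (SE), with adjusted p of 0.792, 0.764 and 0.972 by limma, and 0.12, 0.15 and 0.12 without Dnmt3a-deleted replicate 3. Across the 6 arrays Klk1 and Klk1b26 had a Pearson correlation of 0.946, and Klk1b5 one of 0.850 with Klk1 and of 0.832 with Klk1b26. These genes are close copies of each other, and how far their probes share targets is not known here, so the values of single copies are uncertain.

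Klk1b27 departed from the block in a single mouse. It read 13.11, 13.71 and 12.47 in the controls and 12.99, 12.86 and 11.20 in the deleted mice. On the first 5 arrays it followed the other kallikreins, and on the array of Dnmt3a-deleted replicate 3 it stood at -1.73 relative to the mean of the other Dnmt3a-deleted mice, while Klk1 and Klk1b26 stood at 0.19 and 0.18 and Klk1b5 at -0.26. Its difference, -0.74 ± 0.51 (SE; adjusted p 0.700), was the widest of the 50 genes on the lower side and was -0.17 without that mouse. Klk1b8, with weaker signal, overlapped between groups at 7.07, 7.36 and 6.28 against 7.04, 6.73 and 7.17 (0.07 ± 0.29, and -0.022 without replicate 3). Further Klk1b5 probes were highest in control replicate 2 as well, at 7.53 and 6.20 where the other mice had at most 6.20 and 5.65.

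**Figure D3:**
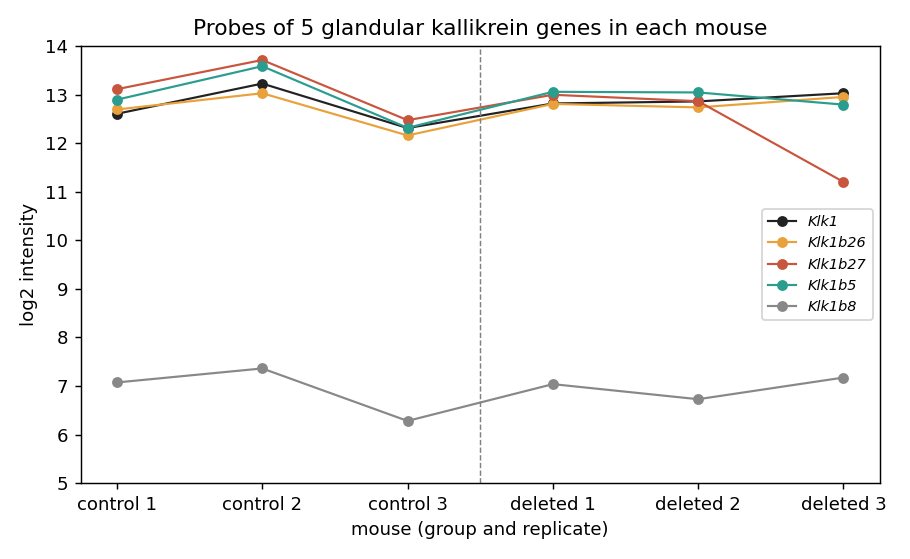
Log2 intensity of 1 probe each of Klk1, Klk1b5, Klk1b8, Klk1b26 and Klk1b27 in the 3 control and the 3 Dnmt3a-deleted mice, with lines only to guide the eye, since the mice have no order. The genes share the high value of control replicate 2 and, among the controls, the low value of replicate 3, and Klk1b27 alone drops to 11.20 in Dnmt3a-deleted replicate 3.

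The remaining kallikreins lay near the detection limit. Klk8, neuropsin, had the smallest p of all 50 members: it read 5.76, 5.80 and 5.96 in the controls and 5.22, 5.50 and 5.36 in the deleted mice, with groups that did not overlap. The difference was -0.48 ± 0.16 (SE), with an unadjusted p of 0.0172 and an adjusted p of 0.700 by limma, and -0.48 without replicate 3. Klk8 was detected on 3 control and 2 Dnmt3a-deleted arrays. The tested genes most like it across the 6 arrays were Slc25a24, Rassf5 and Myo1f, with Pearson correlations of 0.990, 0.983 and 0.982, a description only, chosen out of 11370 genes. Of 9 listed markers of T and NK cells 6 were tested and all 6 had a negative difference, with a mean level of 8.03 to 8.92 in the controls and 6.77 to 7.53 in the deleted mice, while Cd8a, Gzma and Gzmb were not tested. Their part in the Klk8 value was not tested. Klk9 had non-overlapping groups in the other direction (0.24 ± 0.17, and 0.17 without replicate 3), with detection on 2 control and 3 Dnmt3a-deleted arrays.

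Spink1, the secretory trypsin inhibitor, had the smallest p of the inhibitors. Its probe read 13.0002, 13.35 and 12.52 in the controls and 13.80, 13.05 and 13.97 in the deleted mice. Dnmt3a-deleted replicates 1 and 3 lay above every control mouse and replicate 2 among them. The difference was 0.65 ± 0.30 (SE), or 1.57-fold, with an interval of -0.04 to 1.35 and an adjusted p of 0.700, and it was 0.47 without replicate 3. The genes most like it over the 6 arrays were Zfp318, Syt12 and Timm29 (Pearson correlations 0.996, 0.995 and 0.990).

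None of the 6 tested serpins of clade b passed, and for 1 of them, Serpinb9d, the groups did not overlap. Serpinb6a, an inhibitor of cathepsin G, read 12.75, 13.22 and 12.90 in the controls and 12.95, 12.91 and 13.45 in the deleted mice (0.15 ± 0.21, adjusted p 0.811, and -0.028 without replicate 3). Serpinb1a, an inhibitor of neutrophil elastase, read 10.32, 10.42 and 10.68 against 10.72, 10.20 and 9.17. Its difference of -0.45 ± 0.36 (adjusted p 0.715) was -0.02 without replicate 3, since the other Dnmt3a-deleted mice lay at or near the control range. Serpinb9d was detected on 3 control and 0 Dnmt3a-deleted arrays, so it entered the test through the control group alone. It read 5.61, 5.39 and 5.37 in the controls and 5.22, 4.94 and 5.32 in the deleted mice, a difference of -0.30 ± 0.17 (adjusted p 0.700) whose 95% interval, -0.70 to 0.10, includes 0. Without replicate 3 the difference was -0.38, with an unadjusted p of 0.0481 and an adjusted p of 0.926 by limma. Serpinb1c was at -0.29 ± 0.20 with overlapping groups, and at -0.42 without replicate 3.

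Serpins that act outside cells all had a mean log2 intensity below 8. Serping1, the C1 inhibitor of complement, read 5.27, 5.20 and 5.17 in the controls and 5.07, 5.45 and 4.25 in the deleted mice, and was detected on 2 and 1 arrays. Its difference of -0.29 ± 0.29 was 0.043 without replicate 3. Serpina16 was lower in each Dnmt3a-deleted mouse than in any control mouse, but by a very small margin for Dnmt3a-deleted replicate 2. It read 5.57, 5.78 and 5.4295 in the controls and 5.28, 5.4276 and 5.31 in the deleted mice. The difference was -0.25 ± 0.16 (adjusted p 0.700 by limma), and -0.24 without replicate 3. Its probe was detected on 3 control and 2 Dnmt3a-deleted arrays. Serpina5, the protein C inhibitor, and Serpini1, neuroserpin, overlapped between groups, with differences of 0.22 ± 0.20 and -0.16 ± 0.15, and of 0.12 and -0.17 without replicate 3. Serpina1a, Serpina1c, Serpina1d and Serpina1e, copies of the main plasma inhibitor of elastase, were detected on no array. A further copy, Serpina1b, was detected on 2 arrays and so was not tested.

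Different probes of a gene did not always tell the same story in Dnmt3a-deleted replicate 3. Of the 10 member genes with more than 1 kept probe, 5 had probes whose group differences were opposite in sign (Klk1b5, Prss27, Prss8, Serpinb6a and St14). For Prss8, Serpinb6a and St14 the negative difference was only -0.000803, -0.00067 and -0.00784, so the sign alone says little there. The second St14 probe read 8.50, 8.43 and 8.28 in the controls and 8.59, 8.49 and 9.44 in the deleted mice, so replicate 3 was its highest mouse, while it was the lowest for the first probe. The second Prss8 probe read 8.25, 8.70 and 8.09 against 8.40, 8.40 and 9.19 and was likewise highest in replicate 3. Against the median of the other 5 mice, replicate 3 stood at 0.95 and -0.63 for the 2 probes of St14, at 0.79 and -0.28 for those of Prss8, and at -1.50 and -1.58 for those of Tmprss4 shown in the plot of probe pairs. The second Spint1 probe read 9.18, 9.12 and 8.97 against 9.18, 9.19 and 8.91, so replicate 3 was its lowest mouse, at -0.27, while it was the highest for the first probe, at 0.19. The probes of St14, Prss8 and Spint1 thus disagreed on whether that mouse was high or low. The third Tmprss4 probe, at 6.50, 6.59 and 6.85 against 6.60, 6.87 and 5.47, also had its lowest value there.

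**Figure D4:**
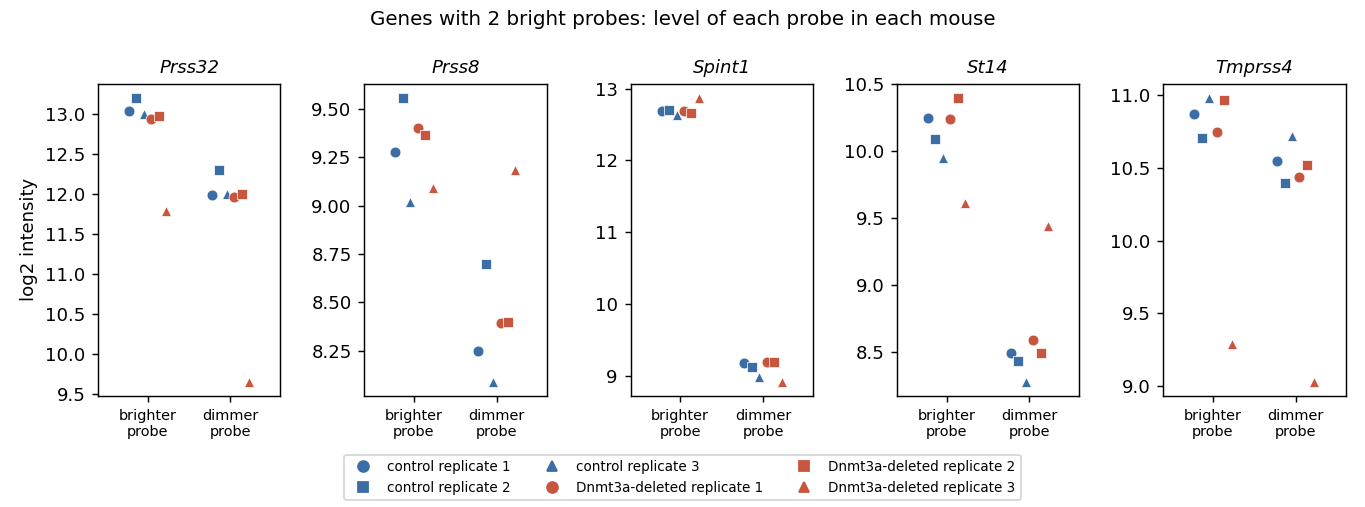
Log2 intensity of 2 probes each of Prss32, Prss8, Spint1, St14 and Tmprss4 in the 6 mice, blue for control and red for Dnmt3a-deleted mice, with a marker shape for each replicate number and a separate axis for each gene. Dnmt3a-deleted replicate 3 lies below the other mice for both probes of Prss32 and Tmprss4, and below them for 1 probe and above them for the other for St14 (9.61 and 9.44) and Spint1 (8.91 and 12.87).

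Listed proteases, protease inhibitors, substrates and receptors outside the named families gave no call either. Some of these inhibitors act on proteases other than serine proteases. Over all genes tested, 6635 had a positive and 4735 a negative difference (median 0.06). Of 51 listed serine proteases of other families 18 were tested, 10 with a positive and 8 with a negative difference (median 0.05). The pancreatic elastase Cela2a was detected on 3 control and 0 Dnmt3a-deleted arrays (-0.39 ± 0.15, and -0.39 without replicate 3). It thus entered the test through the control group alone. Its Dnmt3a-deleted values of 4.94, 4.90 and 4.94 lay below the lowest detected values, so the size of its difference is uncertain. Hpn, hepsin, was at 0.46 ± 0.21 (0.63 without replicate 3). Of 35 listed inhibitors of other families 18 were tested, 13 positive and 5 negative (median 0.13). In that list Timp3, an inhibitor of matrix metalloproteases, was at 0.34 ± 0.20 (0.23 without replicate 3). Wfdc2 read 11.57, 13.43 and 11.91 in the controls and 13.04, 12.63 and 13.72 in the deleted mice, so a control mouse reached the Dnmt3a-deleted range (0.83 ± 0.49, adjusted p 0.700, and 0.53 without replicate 3). Of 24 substrates and receptors 14 were tested, 4 positive and 10 negative (median -0.21). F2r, the thrombin receptor PAR1, read 6.06, 5.89 and 6.67 against 5.57, 5.88 and 5.44, a difference of -0.58 ± 0.24 (unadjusted p 0.0436, adjusted p 0.700, and -0.48 without replicate 3), and Lrpap1, a chaperone of the receptors that clear serpin complexes, was at 0.34 ± 0.19 (0.19 without replicate 3).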

How the data were processed

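The authors deposited unprocessed Illumina signal intensities, linear and with background left in, beside a detection p-value for each probe and array, and a table of processed intensities, also linear; per the file headers the first is not normalized, and the sources used here do not say how the second was matched between arrays. The deposited p-value was also small for 6320 to 7410 probes per array that were dimmer than background. A probe therefore counted as detected at p under 0.05 with a signal above the median of probes with p over 0.97. Intensities were corrected with normexp (saddle-point, offset 16), quantile normalized and taken to log2 with limma 3.58.1 in R 4.3.3. Of 45135 probes, 21183 detected on at least 3 of 6 arrays were kept, and each of 11370 genes was represented by its kept probe of highest mean. Members were named from the platform annotation, and updated RefSeq symbols (GRCm38.p6) gave the same probes.

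Groups were compared with limma (lmFit, eBayes), 2-sided, over all 6 arrays, with Benjamini-Hochberg adjustment over all genes at 0.05. An exact permutation test of 3 against 3 mice cannot go below 0.1. No bead counts were used, so the number of mice limits the precision. Genes named were those of smallest p (8 per class), those of highest mean (4 per class) and a fixed set of epithelial and textbook members. Also named were those detected in 1 group only, 2 per list of genes outside the families, and the 3 genes most like the first of each class. Any member past the threshold would also be named, and others were chosen after their values were seen. Members and lists were chosen with earlier results of these data known. The fit was tested on simulated data. Prss1 is not analysed here.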

Additional observations from a re-analysis of the deposited data

How the results depend on the processing

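No protease or inhibitor gene passed under any of the 18 alternatives to the fit. The smallest adjusted p of any member ran from 0.0858 with array weights (Klk8) and 0.338 with sex as a term (Prss41) to 0.926 without Dnmt3a-deleted replicate 3. Over all genes the counts were 7 higher and 8 lower with array weights, against 1 and 0, and 0 to 1 higher when 1 mouse was left out (0 without control replicate 2). The median of the protease genes ran from -0.03 to 0.06 when 1 mouse was left out. The median of the inhibitor genes ran from -0.090 to 0.040 in the same way, and was 0.11 over the 8 genes detected on all 6 arrays, which are fewer genes. Median scaling moved the median of all genes from 0.06 to -0.05. With sex as a term 6 protease and 0 inhibitor genes had an unadjusted p under 0.05, where 14.5% of all genes did.

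Of 548 values for 31 named genes, 524 kept their direction and side of the threshold and 24 changed sign, all far from the threshold; the cause was not tested. With median scaling Klk1b5 was at -0.11 and Spint1 at -0.066, with cyclic loess at -0.051 and -0.00823. With the mean of the probes Klk1b5, St14 and Prss8 were at -0.093, 0.21 and 0.16. With array weights Serpinb1a, St14 and Prss8 were at 0.20, 0.11 and 0.089, and with sex as a term Klk1b5 was at -0.000572. With 1 mouse left out, Klk1b5 ran from -0.27 to 0.36, Klk1 from -0.014 to 0.44, Klk1b26 from -0.029 to 0.41, St14 from -0.16 to 0.23, Prss8 from -0.13 to 0.13, Tmprss4 from -0.84 to 0.00350, Serpinb6a from -0.028 to 0.28, Spint1 from -0.00156 to 0.11 and Serping1 from -0.56 to 0.043. Replicate numbers did not pair the mice: deviations of same-numbered mice correlated at -0.12, -0.11 and 0.04. With the replicate block 0 protease and 0 inhibitor genes passed, and the medians were 0.03 and -0.00309. A slide block was not run, since the column names give no slide. Current RefSeq symbols gave the same 213 probes. Signal near background limits 32 of the 50 tested members.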

Other observations

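The disagreement between probes of St14, Prss8 and Spint1 in Dnmt3a-deleted replicate 3 was also present across the array. Over 972 genes with at least 2 kept probes of mean log2 intensity above 8, the departure from the median of the other 5 mice was compared between the 2 brightest probes of each gene. The median gap between these probes was 0.43 on the array of Dnmt3a-deleted replicate 3 and 0.12 to 0.14 on the other 5. Probes of 116 genes, 11.9%, departed in opposite directions by more than 0.3 each on that array, against 0 to 3 genes on the others. Slpi, a secreted leukocyte protease inhibitor named after its values were seen, spanned 8.58 to 11.43 among the control mice and 10.57 to 11.88 among the Dnmt3a-deleted mice.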
